A study of Mus musculus with 18 samples.

Results

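The proteasome subunit genes described here are the 50 mouse genes whose GENCODE symbol starts with Psm, a letter from a to g and a digit, without the 4 pseudogene symbols of that pattern, among 47069 genes listed for each oocyte. They comprise 19 core genes (8 Psma and 11 Psmb), 21 regulatory particle genes (7 Psmc and 14 Psmd), 6 genes of activators or an inhibitor (Psme and Psmf) and 4 core assembly chaperones (Psmg). The pattern also takes in Psmc3ip, which encodes a meiotic recombination factor and no proteasome subunit. It is counted with the Psmc genes unless stated, and values of the 6 ATPase genes without it are given beside those of the class. Psmd5, an assembly chaperone, and Psmd9 and Psmd10 are counted with the regulatory particle genes, but not among those called constitutive below. The choice used symbols only, not measured values, and 45 members passed a filter on low counts. The 5 that did not were Psma8, Psmb8, Psmb9, Psmb10 and Psme2b.

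Each of 18 libraries held the mRNA of a single oocyte, made by SMART-seq2 from the supernatant left after the nucleus had been spun down. All oocytes came from wild-type C57BL/6 mice. There were 6 groups of 3: germinal vesicle (GV) oocytes, oocytes matured in vitro to metaphase II without co-culture (IVM-MII), and oocytes matured to metaphase II with MSC co-culture (MSC-IVM-MII), each at 6 weeks (6wk) and 12 months (12m) of age. GV oocytes are arrested in meiotic prophase, metaphase II oocytes are ready for fertilization, and the labels do not spell out MSC. No animal or culture is named for an oocyte, so each group counted as 1 sample, no test was made between groups, and the spread over oocytes may be biological or technical.

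The proteasome is the protease that degrades proteins tagged with ubiquitin. Its core is a barrel of alpha rings (Psma) around beta rings (Psmb), in which Psmb5, Psmb6 and Psmb7 carry the proteolytic sites, and a regulatory particle with a ring of ATPases (Psmc) and non-ATPase subunits (Psmd) recognizes, unfolds and feeds in the substrate. Proteasomal degradation of cyclin B and securin drives the exit from meiotic metaphase, and a maturing oocyte makes almost no new mRNA, so its transcripts are stored, translated, deadenylated or degraded. SMART-seq2 primes on the poly(A) tail, so the values count mRNA whose tail could be primed, and they are relative to the other mRNA of the same oocyte.

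Library totals ranged from 1914072 to 9193559 expected counts. Genes detected numbered 13046 to 16036 in GV and 8612 to 13117 in metaphase II oocytes. Mitochondrially encoded genes held 0.917 to 3.7% of the counts in GV and 3.03 to 14.9% in metaphase II oocytes. The part of these stage differences in the member differences below was not tested. Of 12 oocyte markers, 10 or 11 reached 10 CPM (counts scaled to the library total) in every library, as the label oocyte implies. Markers of mesenchymal stromal cells summed to 1.71 to 35.7 CPM and those of blood and immune cells to 0 to 27.8 CPM, with Thy1, Eng and Nt5e at 0 in all libraries. The sum over 19 cumulus and granulosa markers was 2001 CPM in GV 12m oocyte 3 (15 detected), whereas the remaining GV oocytes had 72.1 to 241 CPM and metaphase II oocytes 0 to 80.0 CPM. Oocyte markers summed to 8776 CPM in GV 12m oocyte 3, against 28222 to 62039 CPM in the remaining GV oocytes. Sample titles begin with a prefix whose meaning is not given, and the ages have no prefix in common. At 6wk the first oocyte of both metaphase II groups has prefix Y01 and stood apart from the 4 with Y03. Mos, a kinase of metaphase arrest, had 1258 CPM in the IVM-MII and 641 CPM in the MSC-IVM-MII oocyte of prefix Y01. Its highest value over the remaining 10 metaphase II oocytes was 12.0 CPM. GV oocytes had 545 to 1967.5 CPM of Mos, a range that held both of these metaphase II oocytes. Gdf9 was at 17328 and 12625 CPM in them, 1558 to 18918 CPM in GV and 571 to 3388 CPM in the remaining metaphase II oocytes. Their mitochondrial share was 3.22 and 3.03%, against 6.04 to 14.9% in the remaining metaphase II oocytes. Zp3 was at 115 and 472 CPM in them, below the 2062 to 20725 CPM of GV oocytes. Some results that rest on both of them or on GV 12m oocyte 3 are also given without them, but differences of most single genes are not.

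In GV oocytes the members were abundant and of unequal level. Their summed TPM (transcript share scaled by length, which allows comparison between genes) was 1.29 to 1.79% of the library. Psma7, an alpha ring subunit, led with 1476 to 2433 TPM, followed by Psma2 (1227 to 2255 TPM), Psmb2 (679 to 1577 TPM), Psmb6 (969 to 1528 TPM) and Psmd4 (842 to 1049 TPM), the ubiquitin receptor of the regulatory particle. The range of Psma7 overlapped those of Psma2, Psmb2 and Psmb6, while the highest value of Psmd4 was below the lowest of Psma7 and of Psma2. At the low end, Psmd13 (5.25 to 49.5 TPM), Psmd1 (1.19 to 49.4 TPM) and Psmd2 (3.02 to 39.1 TPM), structural subunits that a complete particle contains, were far below these. The core made up 60.5 to 72.7% of the members' TPM and the regulatory particle 21.4 to 33.3%. Within the GV oocytes, longer transcripts had lower levels (Pearson r = −0.466 between log2 length and log2(TPM + 1), across 45 members that share these 6 libraries).

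**Figure D1:**
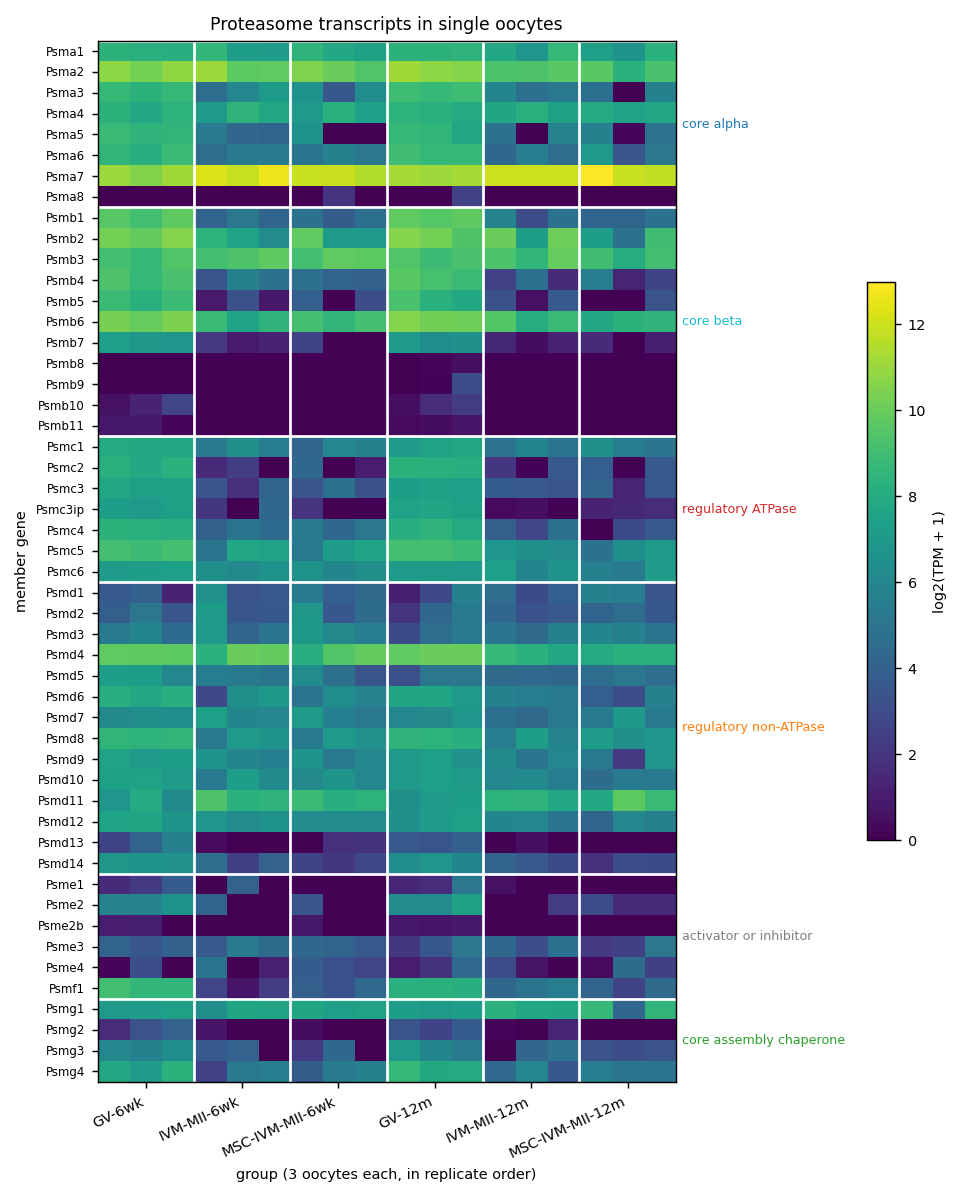
Level of each of the 50 members (rows, by class) in each of the 18 oocytes (columns, 3 per group in replicate order), as log2(TPM + 1) by colour. Most rows darken from the GV columns to the metaphase II columns, with Psma7 staying brightest, and Psma8 and Psmb8 to Psmb11 dark or nearly so throughout.

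After maturation without co-culture most members were at a lower level, in the core and in the regulatory particle. A difference here is the first group's mean log2(CPM + 1) minus that of the second, and a member is called lower or higher past 1 on this scale, a 2-fold difference. At 6wk, 29 of 50 members were 2-fold lower after maturation (39.2% of the 12037 genes past the filter were), and 4 were 2-fold higher (16.7% of genes). At 12m, 33 were lower (39.0% of genes) and 1 was higher (16.1% of genes). Over the 45 members past the filter, 28 were lower and 4 higher at 6wk, and 32 lower and 1 higher at 12m. In the comparisons with and without co-culture and between ages, every member called had passed the filter. The core median was −1.59 at 6wk and −1.52 at 12m, the regulatory median −1.77 and −1.70, and the median of all genes −0.52 at both ages. At 6wk the core median was the value of Psmb10, a gene at 0.536 to 7.08 CPM in GV 6wk oocytes that had not passed the filter. Over core members past the filter the 6wk median was −2.78. Core and regulatory medians over all members were close to each other on this scale, and both were below that of all genes. With a pseudocount of 5 they were further apart, at −0.65 and −1.73 at 6wk and −0.89 and −1.69 at 12m. Averaged within title prefixes, the core medians were −1.95 and −1.46 and the regulatory medians −1.61 and −1.64. Without IVM-MII 6wk oocyte 1, 28 members were lower and 2 higher at 6wk, and without GV 12m oocyte 3, 35 were lower and 4 higher at 12m.

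The similar medians of core and regulatory particle covered unlike classes. The 7 Psmc genes had a median of −3.93 at 6wk and −3.70 at 12m, or −3.17 and −3.10 over the 6 ATPase genes without Psmc3ip, and the 14 Psmd genes −0.94 and −1.21. The alpha genes stood at −0.65 and −1.11, and the beta genes at −2.16 and −1.52, in which the tissue-restricted genes near 0 take part. Over the 14 core genes of the constitutive particle, the core median was −2.87 at 6wk and −2.51 at 12m, against −2.20 and −1.92 over the 17 constitutive regulatory genes. The order of the pair thus depended on which members were counted: over the members past the filter the core stood at −2.78 against −1.77 at 6wk and at −1.53 against −1.70 at 12m.

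Across the 45 members past the filter the differences at 6wk and 12m went together (Pearson r = 0.878, Spearman rho = 0.894, across genes, which are not replicates). These comparisons share no oocyte, and over all genes r was 0.798. Of the 45, 35 were below 0 at both ages, 6 above 0 at both, and 4 changed sign.

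**Figure D2:**
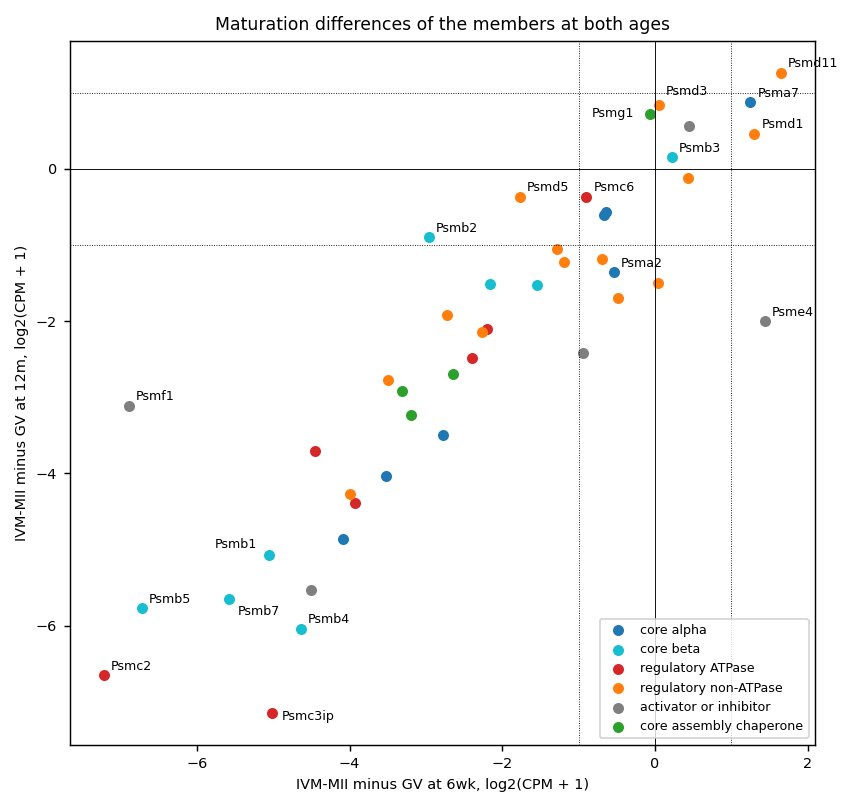
Difference in mean log2(CPM + 1) between IVM-MII and GV oocytes at 6wk (x axis) and at 12m (y axis) for the 45 members past the filter, coloured by class, with dotted lines at the 2-fold limits. Most points lie at lower left near the diagonal, with Psmc2 among the lowest at both ages, Psmd11 is past 2-fold higher at both, and Psmf1, Psme4 and Psmb2 lie off the diagonal.

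Among the proteolytic subunits, Psmb5 and Psmb7 were nearly absent after maturation and Psmb6 was kept at a reduced level. Psmb5, the chymotrypsin-like subunit, was at 310, 152 and 366 CPM in GV 6wk oocytes 1 to 3 and at 0.450, 5.58 and 0.569 CPM in IVM-MII 6wk oocytes. At 12m it was at 640, 227 and 96.5 CPM in GV and at 6.40, 0.3997 and 7.41 CPM in IVM-MII oocytes, and the groups did not overlap at either age. The differences were −6.72 and −5.77, or 126-fold and 67.8-fold lower by the ratio of mean CPM. Psmb7, the trypsin-like subunit, was similarly low after maturation: 156, 87.6 and 127 CPM in GV 6wk against 2.47, 0.930 and 1.42 CPM in IVM-MII 6wk oocytes (−5.58). At 12m Psmb7 was at 227, 86.6 and 57.6 CPM in GV and 1.93, 0.3997 and 1.27 CPM in IVM-MII oocytes (−5.65). Both genes had no count at all in 3 of the 12 metaphase II oocytes.

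Psmb6, the caspase-like subunit, was at 756, 433 and 927 CPM in GV 6wk and 175, 101.3 and 189 CPM in IVM-MII 6wk oocytes, a difference of −2.16 with no overlap. At 12m it was at 1406, 744 and 406.9 CPM against 455, 173 and 229 CPM, a difference of −1.52, and IVM-MII oocyte 1 overlapped GV oocyte 3. Per length, Psmb6 stood at 184 to 723 TPM in the 12 metaphase II oocytes, where Psmb5 stood at 0 to 13.8 TPM and Psmb7 at 0 to 5.26 TPM. In GV oocytes the same 3 genes stood at 969 to 1528, 228 to 602 and 77.2 to 158 TPM.

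Of the beta genes without a proteolytic site, Psmb1 and Psmb4 were lower at both ages, Psmb2 at 6wk, and Psmb3 at neither. Psmb1 was at 663, 346 and 858 CPM in GV 6wk and 10.3, 29.1 and 14.8 CPM in IVM-MII 6wk oocytes (−5.05), and at 1220, 737 and 469 against 52.9, 7.59 and 23.1 CPM at 12m (−5.07). Psmb4 was at 470, 216 and 567 CPM in GV 6wk and 4.05, 32.5 and 21.4 CPM in IVM-MII 6wk oocytes (−4.64). At 12m the values of Psmb4 were 939, 473 and 220 against 5.31, 19.4 and 1.69 CPM (−6.04). Neither gene overlapped between GV and IVM-MII oocytes. Psmb2 was at 820, 462 and 1164 CPM in GV 6wk and 157, 121 and 48.4 CPM in IVM-MII 6wk oocytes (−2.96, no overlap), and at 1642, 913 and 281 against 781, 120 and 687 CPM at 12m (−0.90, with overlap). Psmb3 was at 303.2, 174 and 459 CPM in GV 6wk and 219, 370 and 473 CPM in IVM-MII 6wk oocytes (0.22), and it differed by 0.15 at 12m, with overlap at both ages.

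In the alpha ring, Psma7 was the exception. It was at 1478, 811 and 1883 CPM in GV 6wk and at 2491, 2667 and 4547 CPM in IVM-MII 6wk oocytes, 2.33-fold higher with no overlap (1.25). At 12m it was at 2767, 1744 and 1095 CPM against 3315, 3559 and 2751 CPM, a difference of 0.87 in which GV oocyte 1 overlapped IVM-MII oocyte 3. In TPM, which takes no TMM factor, all 12 metaphase II oocytes (2885 to 8086 TPM) lay above all 6 GV oocytes (1476 to 2433 TPM). In CPM the groups overlapped. Psma3, Psma5 and Psma6 were lower at both ages, by −2.78 to −4.86, and Psma1, Psma2 and Psma4 stayed between −1.36 and −0.54.

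In the regulatory particle, the ATPase gene Psmc2 had the lowest difference of all members at 6wk. It was at 504.3, 284 and 623 CPM in GV 6wk and 2.47, 6.82 and 0 CPM in IVM-MII 6wk oocytes (−7.22), and at 871, 589 and 319 against 5.91, 0.200 and 18.4 CPM at 12m (−6.65). Psmc3 and Psmc4 were lower by −3.70 to −4.45, and Psmc1 and Psmc5 by −2.11 to −2.49. Psmc6 was the ATPase gene kept best, at 199, 163 and 272 CPM in GV 6wk and 91.7, 104 and 140 CPM in IVM-MII 6wk oocytes (−0.90), and at −0.37 with overlap at 12m. Psmc3ip, the recombination factor, was at 138, 88.6 and 171 against 2.697, 0 and 16.5 CPM at 6wk (−5.01) and at 261, 198 and 93.4 against 0.241, 0.3997 and 0 CPM at 12m (−7.14).

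Psmd11, a scaffold subunit, was the only member with all 12 metaphase II oocytes above all 6 GV oocytes in CPM. Of genes past the filter, 2.95% had this order. In TPM the Psmd11 ranges overlapped, at 211 to 839 TPM in metaphase II and 72.1 to 256 TPM in GV oocytes. In CPM Psmd11 was at 120, 230 and 113 CPM in GV 6wk and 586, 413 and 406.9 CPM in IVM-MII 6wk oocytes (1.65). At 12m it was at 183, 205 and 119 against 451, 540 and 255 CPM (1.26). The opposite order, all 12 below all 6, held for 22 members, where 13.4% of genes had it. These were 6 beta and 3 alpha genes, 6 Psmc genes with Psmc3ip among them, 2 Psmd genes (Psmd8 and Psmd14), Psme2, Psmf1 and 3 Psmg genes. Among the beta genes, Psmb10 had not passed the filter. Psmd14, the deubiquitinase of the regulatory particle, was at −3.50 and −2.77 between IVM-MII and GV oocytes, and Psmd13 at −4.0 and −4.27. Psmd4 was at 1054, 746 and 1137 CPM in GV 6wk and 266, 1178 and 1053 CPM in IVM-MII 6wk oocytes (−0.48), so a single IVM-MII oocyte, of prefix Y01, was low. At 12m all 3 IVM-MII oocytes (520, 433 and 227 CPM) were below all 3 GV oocytes (1658, 1380 and 776 CPM), a difference of −1.70 for Psmd4.

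The structural subunits Psmd1, Psmd2 and Psmd3 had means near or above the GV level, which for Psmd2 and Psmd3 at 6wk rested on 1 oocyte. Psmd1 was at 33.5, 35.7 and 5.31 CPM in GV 6wk and 185, 17.98 and 32.7 CPM in IVM-MII 6wk oocytes (1.30), with overlap. Psmd3 was at 21.6, 57.9 and 54.2 CPM in GV 12m and 76.5, 54.0 and 96.1 CPM in IVM-MII 12m oocytes (0.83), also with overlap. Psmd2 differed by 0.43 at 6wk and −0.12 at 12m. Its 6wk values were 41.8, 77.2 and 34.7 CPM in GV and 288, 29.4 and 32.2 CPM in IVM-MII oocytes. At 6wk Psmd3 was at 83.4, 92.2 and 54.8 against 194, 36.9 and 64.3 CPM, a difference of 0.05. The high 6wk value of each of these genes came from IVM-MII oocyte 1, of prefix Y01. Leaving out single oocytes moved the Psmd1 difference at 6wk from 0.34 to 1.99. The 6wk differences of Psmd2 and Psmd3 were not computed without that oocyte.

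**Figure D3:**
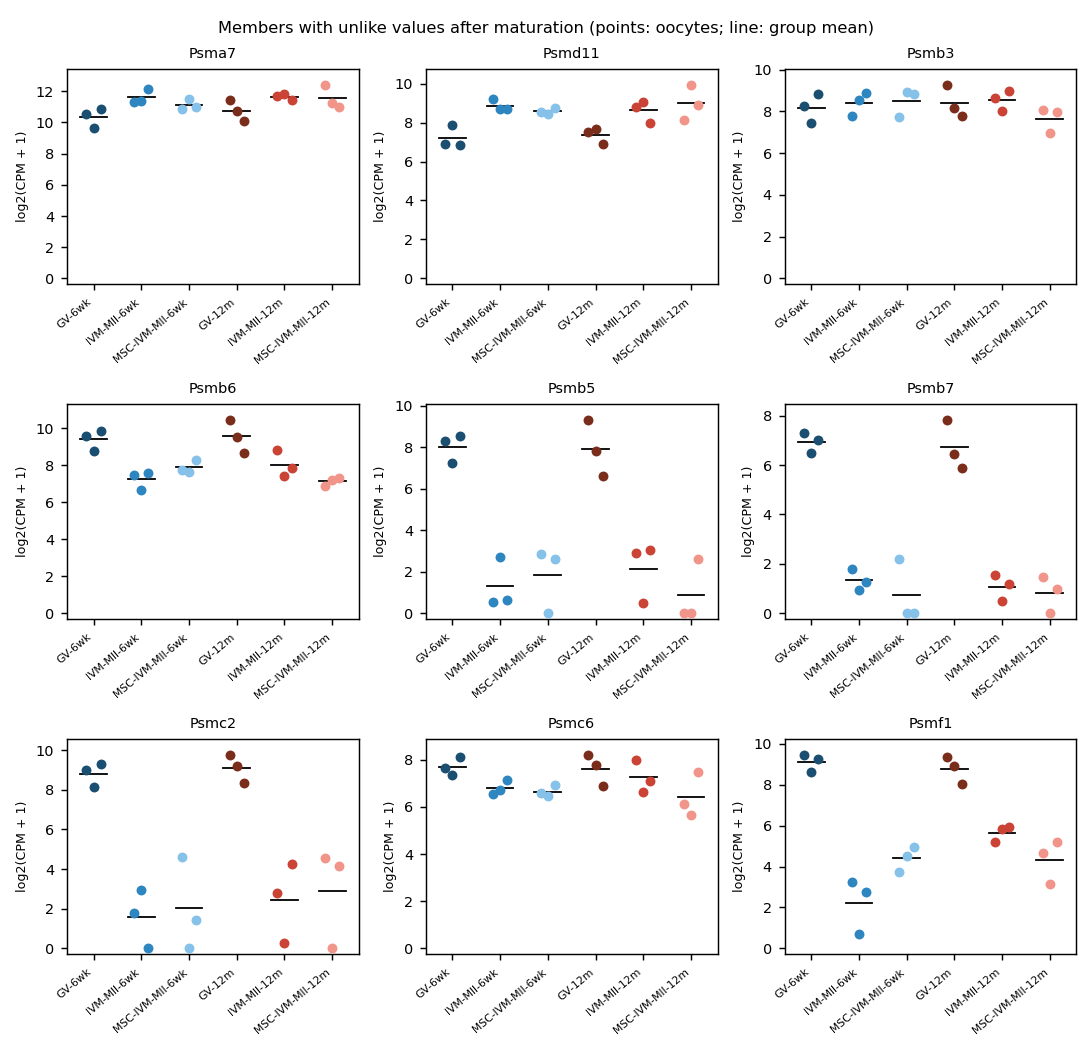
Level of 9 members as log2(CPM + 1) in the 3 oocytes of each group (points), with the group mean as a line. Psma7 and Psmd11 are at or above their GV level after maturation, Psmb3 is level, Psmb6 and Psmc6 are moderately lower, and Psmb5, Psmb7, Psmc2 and Psmf1 are near 0 or far below GV.

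Genes that regulate or assemble the particle also differed. Psmf1, an inhibitor of the core, was at 709, 395 and 614 CPM in GV 6wk and 8.54, 0.620 and 5.69 CPM in IVM-MII 6wk oocytes (−6.89), and at 649, 487 and 259 against 36.1, 56.6 and 59.5 CPM at 12m (−3.11). Psme3, of the nuclear activator, was at 30.0, 20.4 and 14.9 against 23.6, 32.9 and 31.3 CPM at 6wk (0.45) and at 13.3, 31.0 and 55.0 against 49.7, 24.98 and 61.0 CPM at 12m (0.56), with overlap at both ages. Psme4, the activator PA200, was at 1.07, 27.2 and 0.354 CPM in GV 6wk and 159, 0 and 8.83 CPM in IVM-MII 6wk oocytes (1.44). Without IVM-MII 6wk oocyte 1 the difference of Psme4 turned to −0.45, so its direction rested on that oocyte. At 12m Psme4 was lower in IVM-MII oocytes, at 53.6, 5.0 and 0 CPM against 12.0, 17.3 and 86.7 CPM (−2.0), with overlap. Psme2 was lower by −4.50 and −5.53, but it shares reads with its near-identical copy Psme2b, so both are uncertain. Of the assembly chaperones, Psmg2, Psmg3 and Psmg4 were lower by −2.65 to −3.31, and Psmg1 was at −0.07 at 6wk and at 0.72 at 12m, with 211, 130 and 84.3 CPM in GV and 301.2, 217 and 160 CPM in IVM-MII 12m oocytes.

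The tissue-restricted members were at or near 0 throughout. Psma8, the alpha subunit of the testis, had counts in MSC-IVM-MII 6wk oocyte 2 (4.67 CPM) and GV 12m oocyte 3 (4.99 CPM) and none in the other 16 oocytes. Of the immunoproteasome subunits, which interferon induces, Psmb8 was at 0.251 and 0.302 CPM and Psmb9 at 0.125 and 5.74 CPM in GV 12m oocytes 2 and 3, and both had no count elsewhere. Psmb10 was at 0.536, 1.21 and 7.08 CPM in GV 6wk and 0.667, 2.63 and 2.87 CPM in GV 12m oocytes and had no count in any metaphase II oocyte. Psmb11, of the thymus, was at 0.708 to 3.49 CPM in GV and at no more than 0.225 CPM in metaphase II oocytes. In GV 12m oocyte 3, the oocyte with the most granulosa transcripts, 8 of 50 members had their highest level of the 6 GV oocytes. That is a lower share than the 23.4% of genes past the filter that were highest there. These members were Psmb8, Psmb9 and Psma8, which had not passed the filter, and Psme1, Psme3, Psme4, Psmd1 and Psmd2. The part of granulosa transcripts in these values was not tested.

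The balance of the classes within single oocytes followed from these unlike differences. The members' sum was 1.29 to 1.79% of library TPM in GV and 0.696 to 1.21% in metaphase II oocytes, without overlap. The core share of the members' TPM was 65.2 ± 4.25% (SD, 3 oocytes) in GV 6wk and 76.2 ± 5.51% in IVM-MII 6wk oocytes, and 68.5 ± 3.63% against 81.5 ± 3.73% at 12m. GV 12m oocyte 1, at 72.7%, lay above the lowest metaphase II oocytes, at 69.9%. Psma7 alone took 11.4 to 16.3% of the members' TPM in GV and 35.9 to 67.0% in metaphase II oocytes. Without Psma7 the ratio of core to regulatory TPM was 1.47 to 2.77 in GV and 0.685 to 3.88 in metaphase II oocytes, and these ranges overlapped.

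Inside the particles, the 6 ATPase genes without Psmc3ip took 8.97 to 12.0% of the members' TPM in GV and 1.65 to 4.65% in metaphase II oocytes, Psmc3ip left out of both sums. With Psmc3ip the shares were 9.91 to 12.9% and 1.66 to 4.65%, and GV and metaphase II oocytes did not overlap either way. Beta genes took 27.5 to 35.1% in GV and 7.87 to 27.1% in metaphase II oocytes, and alpha genes 32.3 to 38.8% against 50.3 to 78.9%. Psmd11 was 1.75 to 5.95% of regulatory TPM in GV and 13.2 to 46.6% in metaphase II oocytes. The transcripts of subunits that a particle holds in equal number were thus more uneven after maturation: the median of the 14 constitutive core genes was 374 to 652 TPM in GV and 22.3 to 142 TPM in metaphase II oocytes, while the highest of them, Psma7, was higher.

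**Figure D4:**
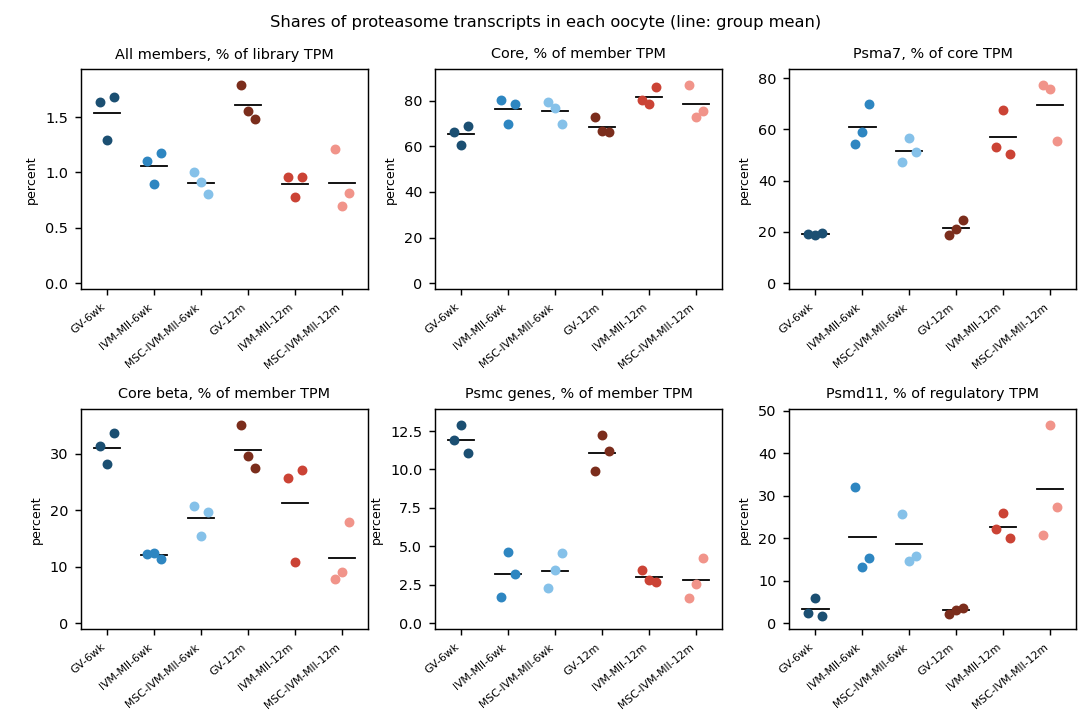
Per oocyte (points, with the group mean as a line), the members' share of library TPM, the core, beta and Psmc shares (with Psmc3ip) of the members' TPM, the share of Psma7 in core TPM and that of Psmd11 in regulatory TPM, all in percent. The members' and Psmc shares are lower and the Psma7 and Psmd11 shares higher in all metaphase II oocytes than in all GV oocytes.

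Co-cultured metaphase II oocytes differed from GV oocytes in a like manner. They share the GV oocytes with the comparison above, so both are not independent. At 6wk 32 members were lower (35.2% of genes) and 3 higher (21.4% of genes), and at 12m 34 were lower (41.7% of genes) and 3 higher (16.7% of genes). Over the 45 members past the filter, 31 were lower at 6wk and 33 at 12m, with 3 higher at each age. The core and regulatory medians were −1.59 and −2.29 at 6wk and −2.0 and −2.04 at 12m, against −0.29 and −0.60 for all genes. Over core members past the filter the medians were −2.40 at 6wk and −3.31 at 12m. Without MSC-IVM-MII 6wk oocyte 1 the regulatory median at 6wk was −1.62. The largest differences were those of Psmc2 (−6.79), Psma5 (−6.55) and Psmc3ip (−6.50) at 6wk and of Psmb5 (−7.05), Psmc4 (−6.35) and Psmb4 (−6.24) at 12m. Psmd11 was higher by 1.38 at 6wk, at 376, 350 and 428 CPM, and by 1.63 at 12m, at 283, 979 and 478 CPM.

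Between metaphase II oocytes with and without co-culture the members differed little at 6wk. Of the 50, 3 were lower (5.22% of genes) and 3 higher (16.2% of genes), and core and regulatory medians were 0.00 and −0.03 against 0.20 for all genes. Without both Y01 oocytes there were 6 each way. Psmf1 was higher with co-culture, at 12.4, 22.0 and 30.0 CPM against 8.54, 0.620 and 5.69 CPM (2.18, no overlap). Psma5 was at 71.4, 0 and 0 CPM against 30.1, 19.8 and 17.9 CPM (−2.47), so the lower mean rested on oocytes 2 and 3. Psme4 was at 60.9, 15.003 and 27.9 CPM with co-culture (1.40), but the difference was −0.37 without IVM-MII 6wk oocyte 2. Psmd3 (0.76), Psmd5 (−0.51) and Psmd7 (−0.51) overlapped between the groups.

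At 12m, 11 members were lower (15.2% of genes) and 3 higher (10.3% of genes) with co-culture, and the medians were −0.24 for the core, −0.09 for the regulatory particle and −0.09 for all genes. Psmb2 was at 95.7, 14.5 and 289 CPM with and 781, 120 and 687 CPM without co-culture (−2.41), with overlap. Psmc4 was at 0, 7.76 and 12.6 CPM against 20.4, 8.99 and 32.0 CPM (−1.96), and Psma3 at 20.03, 0 and 38.5 CPM against 57.6, 24.98 and 30.5 CPM (−1.95), both with overlap. Psmd7, a partner of Psmd14, was at 57.0, 163 and 52.3 CPM against 41.8, 38.2 and 52.1 CPM (0.84), without overlap. Psmd1 (1.19) and Psme4 (1.43) were higher by their means and overlapped. Leaving out single oocytes moved the count of lower members from 5 to 16, so at 12m the count depended on single oocytes.

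Age made little difference in GV oocytes. Between 12m and 6wk, 1 member was lower (4.27% of genes) and 1 higher (9.45% of genes), with medians of 0.23 for the core, −0.01 for the regulatory particle and 0.12 for all genes. The lower one was Psmd5, an assembly chaperone of the regulatory particle: 49.3, 138 and 68.0 CPM at 12m against 403.5, 291 and 227 CPM at 6wk (−1.93, 3.61-fold lower), with no overlap. Psme4 was the higher one, at 12.0, 17.3 and 86.7 CPM against 1.07, 27.2 and 0.354 CPM (2.68), with overlap. Its highest value was in the oocyte with the most granulosa transcripts. Psmd3 (−0.86), Psmd6 (−0.45), Psme2 (0.68) and Psma3 (0.47) followed by size, all within 2-fold. Without GV 12m oocyte 3, 2 members were lower and 1 higher. Title prefixes and ages coincide, so they cannot be told apart in any comparison of ages.

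In metaphase II oocytes without co-culture, 4 members were lower at 12m than at 6wk (9.08% of genes) and 2 higher (18% of genes), with medians of 0.00 for the core, −0.08 for the regulatory particle and 0.16 for all genes. Psmf1 was 10.2-fold higher at 12m, at 36.1, 56.6 and 59.5 against 8.54, 0.620 and 5.69 CPM (3.43, no overlap). Psmb2 was at 781, 120 and 687 CPM at 12m and 157, 121 and 48.4 CPM at 6wk (2.03), with overlap. Psmd7 was lower, at 41.8, 38.2 and 52.1 against 172, 90.2 and 91.7 CPM (−1.35, no overlap). Psmd4 (−0.90), Psma5 (−0.88) and Psmg1 (0.94) were within 2-fold.

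In co-cultured oocytes, 8 members were lower at 12m (15.2% of genes) and 1 higher (7.73% of genes), and the regulatory median was −0.58 against −0.01 for the core and −0.12 for all genes. Without MSC-IVM-MII 6wk oocyte 1, 13 were lower and 4 higher. Leaving out single oocytes moved the regulatory median from −0.52 to −0.16, the last without MSC-IVM-MII 12m oocyte 1. Psmc4 was at 0, 7.76 and 12.6 CPM at 12m and 27.4, 25.7 and 38.2 CPM at 6wk (−2.65), with no overlap. Psma3 (−1.88) was at 20.03, 0 and 38.5 CPM against 57.5, 9.67 and 64.8 CPM, and Psmd6 (−1.52) at 13.4, 8.59 and 52.9 CPM against 26.6, 95.02 and 65.8 CPM, both with overlap. Psma5 was the higher one (1.53), at 52.1, 0.139 and 28.04 CPM against 71.4, 0 and 0 CPM. Psmd8 (0.58) and Psma7 (0.44) were the next on the higher side. Psmf1, 10.2-fold apart between the ages without co-culture, differed by −0.07 with it, and the difference between these differences was not tested.

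Members of most classes also differed between the Y01 oocytes and the others of their age and stage. In the 2 Y01 oocytes 12 members lay above all 4 Y03 oocytes (23.2% of genes did), a share near that of all genes, and 11 lay below (11.5% of genes did). The higher ones were 5 Psmd, 2 alpha, 2 beta, 1 Psmg and 2 activator genes, and the lower ones 4 Psmd, 2 Psmc, 2 alpha, 1 beta and 2 Psmg genes. Psmd2 was at 288 and 237 CPM in Y01 and at 29.4 to 67.2 CPM in Y03 oocytes. Psmd1, Psmd3, Psmd5 and Psmd7 were also higher in Y01. Psmd4 was at 266 and 235 CPM in Y01 and 802 to 1178 CPM in Y03 oocytes, and Psmc5 at 26.5 and 33.5 against 165 to 258 CPM. The part of the prefix in the spread within these groups was not tested.

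**Figure D5:**
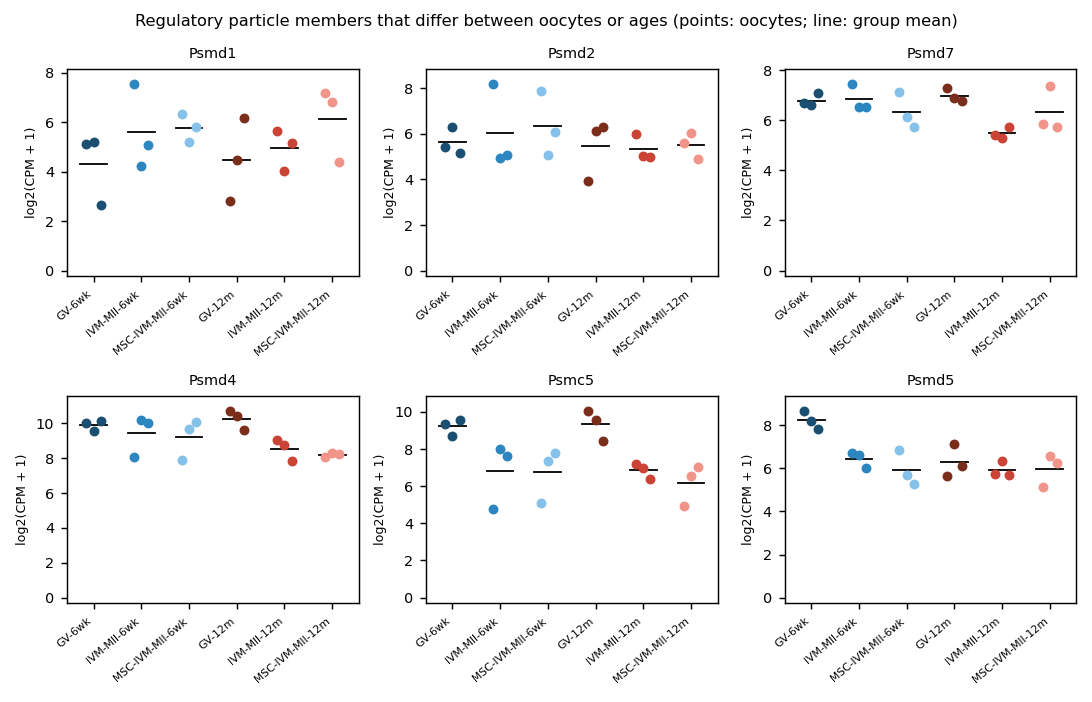
Level of 6 regulatory particle members as log2(CPM + 1) in the 3 oocytes of each group (points, oocyte 1 at left; lines, group means). Oocyte 1 of both 6wk metaphase II groups, of prefix Y01, is above the others for Psmd1, Psmd2 and Psmd7 and below them for Psmd4 and Psmc5, and Psmd5 is higher in GV 6wk than in GV 12m oocytes.

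The 3′ ends of the members are shown because stored oocyte mRNA is polyadenylated or deadenylated there. The cytoplasmic polyadenylation element, to which CPEB1 binds, was searched as TTTTAT or TTTTAAT on the transcript's strand in the last 100 bases of 1 annotated transcript per gene (GENCODE M21, GRCm38). Which 3′ end the oocytes used was not measured, and for the 11 members with a 3′ UTR under 100 bases the window reached into coding sequence. TTTTAAT can overlap the hexamer AATAAA. In capitals are the element in the first 6 sequences and the hexamer AATAAA of the polyadenylation signal in the last 3, which belong to Psmd11, higher after maturation, and to Psmb5 and Psmc2, among the lowest.

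Psma1: ccaatgtTTTTATatgaagaaaataagtgt
Psma5: tgtgtttTTTTATgaagtctgtacataaca
Psmg1: ttttgtaTTTTATtctggcttgggatgttt
Psmg3: aagatttTTTTATtaaaaataaatctaaag
Psmb1: tgcttttTTTTAATaaacttctgttctgat
Psmb3: tttttctTTTTAATaaaattgcctttcttt
Psmd11: cagatgagttccAATAAAataatttttttt
Psmb5: ctccatggctatAATAAAtaatagtacctc
Psmc2: ccaccgcacaaaAATAAAagatttaaaaac

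They lie at chr7:114264654-114264683 (minus strand, Psma1), chr3:108279915-108279944 (plus, Psma5), chr16:95979961-95979990 (minus, Psmg1), chr5:139823615-139823644 (minus, Psmg3), chr17:15475024-15475053 (minus, Psmb1) and chr11:97713470-97713499 (plus, Psmb3). Those with the hexamer alone lie at chr11:80473212-80473241 (plus, Psmd11), chr14:54614124-54614153 (minus, Psmb5) and chr5:21803754-21803783 (plus, Psmc2), all in 3′ UTRs.

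The element's letters stood in 6 of the 50 members (12%). Among the 45 members past the filter the share was 13.3%, against 19.3% of 10787 genes past the filter. Holders of the element included kept and lost members: Psma1, Psmb3 and Psmg1 stayed within 2-fold at both ages, and Psma5, Psmg3 and Psmb1 were lower. Psmd11 did not hold it in this window. Over all genes the share was 12.1% among those lower in IVM-MII at 6wk, 21.5% between the limits and 30.0% among the higher ones. A hexamer AATAAA or ATTAAA was found in 45 of 50 members (90%), in 88.9% of members past the filter and in 80.4% of genes past it. The members' transcripts were short: those past the filter had a median length of 1440 bases and a median 3′ UTR of 241 bases, against 2829 and 909 bases over all genes. Log2 transcript length and the maturation difference had r = 0.266 at 6wk and 0.247 at 12m across the 45 members, and 0.332 and 0.267 across all genes.

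Genes that work with the proteasome are given as counts, to be read against all genes past the filter, of which 39.2% were 2-fold lower and 16.7% higher at 6wk, and 39.0% and 16.1% at 12m. Of 6 genes of ubiquitin and its activation, 4 were 2-fold lower after maturation at 6wk and 6 at 12m, with none higher. Rps27a, which encodes ubiquitin fused to a ribosomal protein, was at 269, 156 and 462 CPM in GV 6wk and 0, 7.44 and 2.85 CPM in IVM-MII 6wk oocytes (−6.40), and at 692, 389 and 316 against 0.241, 0.799 and 3.60 CPM at 12m (−7.66). As a ribosomal protein gene with processed copies elsewhere in the genome, Rps27a is less certain than the others.

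Of 11 cofactors with a measured value, among them the ubiquitin receptor Adrm1 and the core assembly factor Pomp, 4 were lower and 1 higher at 6wk, and 3 lower and none higher at 12m. Zfand5, an activator of the proteasome, was the higher one, at 60.1, 56.0 and 8.14 CPM in GV and 338, 97.01 and 97.9 CPM in IVM-MII 6wk oocytes (2.23), with 0.85 and overlap at 12m. The deubiquitinase Uchl5 was at 104, 101.9 and 63.5 against 201, 247 and 72.8 CPM at 12m (0.80). Of 10 shuttle factors and p97 partners, 4 were lower and 2 higher at 6wk, and 5 lower and 1 higher at 12m. Ubqln1, a shuttle factor, was higher at both ages without overlap: 58.7, 57.5 and 7.08 against 259, 65.4 and 68.9 CPM at 6wk (1.81) and 17.998, 81.8 and 94.7 against 106, 125 and 119 CPM at 12m (1.14). Ubxn1, a p97 cofactor, was at 71.5, 54.5 and 55.6 against 0, 8.39 and 0 CPM at 12m (−4.86).

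The 4 regulators of proteasome genes had medians of 0.46 and 0.34. Of them Ddi2, the protease that activates the transcription factor Nfe2l1, was at 4.83, 22.1 and 5.31 CPM in GV 6wk and 53.7, 13.3 and 15.1 CPM in IVM-MII 6wk oocytes (1.30), with overlap, and at 0.00 at 12m. Of 6 interferon and peptide-loading genes, 3 were lower at 6wk and 4 at 12m, Irf1 most at 6wk: 139, 252 and 84.2 against 11.5, 0 and 4.27 CPM (−5.16), and −3.53 at 12m.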

How the data were processed

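Single-oocyte SMART-seq2 libraries were made with a TruePrep kit, per the labels' protocols. Each oocyte has a deposited table with an expected count, a TPM and an FPKM for every gene, per the file headers. Per the submitters' processing notes the tools were FastQC 0.11.8, Trim Galore 0.4.5, TopHat2 2.1.1 and Cufflinks, on GRCm38.p5 (mm10). Which tool and annotation gave the expected counts is not stated. FPKM, as deposited, was not used. Symbols from GENCODE M21 matched 46488 of 47069 gene identifiers.

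After rounding, the deposited expected counts were scaled with edgeR 4.0.16 (TMM, in R 4.3.3), and 12037 genes passed filterByExpr by group. Differences are between group means of log2(CPM + 1), which understates them where levels are low, and a fold is a ratio of mean CPM. Shares and levels between genes used TPM, as deposited by the authors. No p-value was computed, since oocytes of a group without a named animal are not replicates. Without molecular identifiers, reads may be copies of 1 molecule, and precision follows depth. No 2 libraries agreed within sampling noise (chi-square per degree of freedom at least 27.9 over 153 pairs).

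Values per oocyte are given for the 5 members with the largest difference each way in IVM-MII against GV oocytes and for up to 3 each way elsewhere, where the higher group averaged 20 CPM or more, and for 3 pathway genes each way. The tissue-restricted members were added, and other members were described after their values were seen. Members, gene lists and alternatives were chosen with earlier results of these data known. Of 12 cofactors listed, 11 matched a symbol. Marker lists for oocytes, for follicle cells, for stromal cells and for blood cells served to check the cell type. Promoter motifs, planned at first, were not analysed here, and 1 pathway gene and 1 sequence are not reported here. The computation was tested on simulated counts. Python 3.11.15, NumPy 2.4.6, pandas 2.3.3 and Matplotlib 3.10.9 did the rest, with DESeq2 1.42.0 for an alternative scaling.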

Additional observations from a re-analysis of the deposited data

Results flagged for a closer look

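Psmb6, which encodes the caspase-like subunit of the core, differed in opposite directions between oocytes with and without co-culture at the 2 ages. At 6wk all 3 co-cultured oocytes (215, 199 and 307 CPM) lay above all 3 oocytes matured without it (175, 101.3 and 189 CPM), a difference of 0.65 in mean log2(CPM + 1). At 12m all 3 co-cultured oocytes (118, 148 and 160 CPM) lay below all 3 without it (455, 173 and 229 CPM), a difference of −0.89. Neither reached 2-fold, and the difference between the ages was not tested.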

How the results depend on the processing

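Maturation differences of core and regulatory particle stayed negative at both ages under every alternative run. With a pseudocount of 5 in place of 1, the core median at 6wk against GV oocytes was −0.65 without and −0.92 with co-culture, and the regulatory median of the latter −1.57. With a mean CPM of at least 1 or with constitutive subunits only, the core median was −2.87 (IVM-MII, 6wk), −2.51 (IVM-MII, 12m) and −2.75 (MSC-IVM-MII, 6wk), and with members past the filter only it was −2.78 and −2.40 at 6wk. The regulatory median of MSC-IVM-MII against GV at 6wk was −2.01 with deposited TPM and −1.96 within title prefixes. With constitutive subunits only, lower members numbered 18 and 21 (IVM-MII, 6wk and 12m) and 20 (MSC-IVM-MII, 6wk). Higher members of IVM-MII at 12m numbered 2 within prefixes and with totals without mitochondrial genes, and those of MSC-IVM-MII at 6wk 5 within prefixes.

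For co-culture at 6wk, a pseudocount of 5 or constitutive subunits only left 1 lower and 1 higher member, and leaving out both Y01 oocytes gave 6 and 6. At 12m deposited TPM gave 7 lower and 5 higher, constitutive subunits 6 and 1, and a pseudocount of 5 gave 1 higher. For age in GV oocytes, constitutive subunits gave 0 lower and 0 higher, total counts alone and totals without mitochondrial genes 3 higher, and DESeq2 size factors and TPM 2 higher. For age in IVM-MII, a pseudocount of 5 gave 1 lower, and constitutive subunits 2 lower and 1 higher. For age in MSC-IVM-MII, totals without mitochondrial genes gave 5 lower and 3 higher, TPM 2 higher and a pseudocount of 5 gave 0 higher. By CPM the core share was 52.1, 63.0 and 61.4% at 6wk and 56.2, 70.7 and 65.5% at 12m (GV, IVM-MII, MSC-IVM-MII). Over constitutive subunits it was 72.5% (GV 6wk), 75.3% (GV 12m) and 86.1% (IVM-MII 12m).

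Leaving out single oocytes, higher members of IVM-MII against GV ranged from 2 to 4 at 6wk and 1 to 4 at 12m, and those of MSC-IVM-MII at 6wk from 3 to 5, with its regulatory median from −2.31 to −1.62. For co-culture, lower members ranged from 3 to 7 and higher ones from 4 to 6 at 6wk, and lower ones from 5 to 16 at 12m. For age, lower and higher members ranged from 1 to 2 and 1 to 4 (GV), 4 to 9 and 3 to 6 (IVM-MII), and 8 to 15 and 0 to 4 (MSC-IVM-MII, regulatory median −0.52 to −0.16). Psme4 turned to −0.45 in IVM-MII against GV at 6wk without IVM-MII oocyte 1 (range −0.45 to 3.21) and to −0.37 for co-culture at 6wk without IVM-MII oocyte 2 (range −0.37 to 3.29). The cause was not tested. Depth limits members near 0 most. No paired analysis was possible because replicate numbers were given in order and pair nothing. Values within title prefixes, whose meaning is not given, block on the prefix only, and ages share no prefix, so no comparison of ages has a value within prefixes.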
